A study of Mus musculus with 24 samples.

Results

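Imprinted genes are transcribed mainly or only from the allele of 1 parent. The 35 imprinted genes described here were chosen by name, and all 35 were found by identifier among the 53946 genes of the deposited count table. Protein-coding members numbered 28 and non-coding members 7 (H19, Meg3, Rian, Mirg, Kcnq1ot1, Airn and Peg13). Calcr, the calcitonin receptor gene, had at most 2 reads in any library and was not tested, which left 34 members, 27 of them coding.

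RNA came from mouse ventral otocysts, the part of the embryonic inner ear that holds the cochlea, dissected at embryonic day 14.5 from embryos labelled C57BL/6J x 129X1/SvJ. In translating ribosome affinity purification (TRAP), an antibody against GFP isolates ribosomes whose L10a subunit is fused to eGFP. Here the fusion was switched on in the lineage of cells marked by Fgf20-Cre. The 4 groups were TRAP RNA from Fgf20-/- embryos (mut, n = 8), TRAP RNA from Fgf20+/- embryos (het, n = 8), pre-TRAP RNA from Fgf20-/- embryos (n = 4) and pre-TRAP RNA from Fgf20+/- embryos (n = 4). Tissue of 3 to 7 embryos that shared a genotype was combined for every library, and all groups were split evenly between the batches labelled experiment 2 and experiment 1. The control genotype was heterozygous, so no library came from embryos with both Fgf20 copies. The labels do not say which TRAP and pre-TRAP libraries came from the same pool.

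Libraries held 30745166 to 53374796 counted reads. Fgf20 itself averaged 2.24 ± 0.729 CPM (counts-per-million, scaled by library) in TRAP mut and 4.19 ± 0.979 CPM in TRAP het libraries (SD, n = 8 each), and the highest mut library, at 3.02 CPM, lay below the lowest het library, at 3.11 CPM. Fgf20 did not pass adjustment there (log2 change -0.94 ± 0.22, adjusted p = 0.188, edgeR), and in pre-TRAP RNA it averaged 0.236 ± 0.069 CPM in mut and 0.886 ± 0.584 CPM in het libraries (n = 4 each). Marker lists were read as a check of the tissue. All 12 neuronal, 11 of 12 prosensory and 8 of 10 hair cell markers were called higher in TRAP than in pre-TRAP RNA. The remaining prosensory marker, Bmp4, was called lower. Of 14 periotic mesenchyme markers 12 were called lower and 1 (Dcn) higher. All 8 erythroid and all 7 endothelial markers were called lower. Of all genes tested 27.9% were called higher and 31.2% lower. Otic epithelium was mixed, with 6 of 9 markers higher and 2 lower. The summed markers of that list were 308.5 to 484.2 CPM in TRAP and 426.3 to 900.8 CPM in pre-TRAP libraries. Of 8 Schwann cell and glial markers 3 were higher and 5 lower. TRAP libraries 3 (het, experiment 2), 4 (mut, experiment 2), 5 (het, experiment 1) and 6 (mut, experiment 1) stood apart, with summed otic capsule cartilage markers of 1661.8 to 6098.0 CPM, against 570.6 to 1034.4 CPM in the other 12 TRAP libraries. Their summed periotic mesenchyme markers were 575.1 to 1273.7 CPM, against 292.5 to 517.0 CPM in the other 12.

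Imprinting is set in the germ line by DNA methylation at control regions and kept in body cells by factors such as ZFP57, which binds a methylated DNA motif. Many paternally expressed genes, Igf2 among them, promote fetal growth, and several maternally expressed genes restrain it, such as Igf2r, Grb10 and Phlda2. The genes sit in clusters, in which non-coding RNAs often lie beside or across the coding genes they silence, as Airn does with Igf2r and Kcnq1ot1 with Phlda2. Counts sum both alleles, so no value here says which parental copy was read.

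RefSeq promoter windows (GRCm38.p6, 250 bases before to 50 bases after a transcript start) were matched for 28 of the 35 members, with 44 windows in all, but not for H19, Rtl1, Peg10, Sgce, Impact, Peg13 or Trappc9. The hexamer TGCCGC, searched on both strands, is the motif that ZFP57 binds when methylated. It stood in 12 of the 44 windows (27.3%), which belong to 11 members, and in 11.6% of all 32851 mouse windows. The palindrome GGGGCCCC, a core recognised by the imprinted zinc finger factor PLAGL1, stood in 2 members' windows (4.55%), the overlapping ones of Peg3 and Usp29, and in 1.08% of all windows. Member windows held a median of 13.5 CG dinucleotides, against 7 in all windows. A match is only a match of letters, and windows of 1 gene can overlap.

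The windows below are shown because they hold one of these motifs and because their genes moved in both directions between TRAP and pre-TRAP RNA. Capitals mark TGCCGC or its reverse complement, and in the Peg3 window GGGGCCCC. Nnat (chr2:157559828-157560127, plus strand) and Nap1l5 (chr6:58907077-58907376, minus strand) were higher in TRAP RNA.
Nnat: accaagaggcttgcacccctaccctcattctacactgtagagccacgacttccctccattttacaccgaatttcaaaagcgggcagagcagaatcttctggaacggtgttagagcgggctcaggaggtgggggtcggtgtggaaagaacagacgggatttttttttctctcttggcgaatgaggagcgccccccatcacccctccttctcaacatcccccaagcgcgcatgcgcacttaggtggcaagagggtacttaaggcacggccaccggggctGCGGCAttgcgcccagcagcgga
Nap1l5: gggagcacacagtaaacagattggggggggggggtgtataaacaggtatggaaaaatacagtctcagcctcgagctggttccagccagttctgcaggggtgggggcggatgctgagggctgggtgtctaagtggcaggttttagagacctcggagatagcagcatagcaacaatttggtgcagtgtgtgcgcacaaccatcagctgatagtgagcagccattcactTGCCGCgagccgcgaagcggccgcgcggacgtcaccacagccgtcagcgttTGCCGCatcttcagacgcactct
Mest (chr6:30737800-30738099, plus strand), Plagl1 (chr10:13090582-13090881, plus strand) and Peg3 (chr7:6730370-6730669, minus strand) were lower in TRAP RNA.
Mest: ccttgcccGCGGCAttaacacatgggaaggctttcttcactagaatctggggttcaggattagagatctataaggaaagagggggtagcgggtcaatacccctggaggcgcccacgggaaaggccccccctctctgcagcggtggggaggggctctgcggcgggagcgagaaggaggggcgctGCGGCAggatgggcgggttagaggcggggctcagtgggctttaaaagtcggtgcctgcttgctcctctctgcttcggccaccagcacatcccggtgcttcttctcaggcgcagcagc
Plagl1: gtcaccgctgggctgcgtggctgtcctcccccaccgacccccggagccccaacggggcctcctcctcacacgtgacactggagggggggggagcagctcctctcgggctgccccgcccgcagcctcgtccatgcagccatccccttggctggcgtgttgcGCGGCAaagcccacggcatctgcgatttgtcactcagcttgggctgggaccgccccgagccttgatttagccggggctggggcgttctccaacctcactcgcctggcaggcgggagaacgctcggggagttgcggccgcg
Peg3: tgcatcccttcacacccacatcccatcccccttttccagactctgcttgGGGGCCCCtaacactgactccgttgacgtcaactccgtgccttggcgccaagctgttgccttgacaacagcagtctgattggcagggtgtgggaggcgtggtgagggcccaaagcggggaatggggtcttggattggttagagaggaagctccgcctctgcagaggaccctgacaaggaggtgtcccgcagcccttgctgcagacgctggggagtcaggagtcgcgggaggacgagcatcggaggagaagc

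Some members are also hosts of small RNAs. By RefSeq gene positions, on either strand, the span of H19 holds 1 miRNA hairpin (Mir675), Mest 1 (Mir335), Igf2 1 and Meg3 1. The span of Rian holds 3 with 11 small nucleolar RNAs, Mirg 10 and Rtl1 15. A hairpin inside a span need not be made from that gene, and Rtl1 overlaps Meg3 and Rian. The mature forms of the hairpins in H19 and Mest, both lower in TRAP RNA, are given with the seed (bases 2 to 8) in capitals. On GRCm38.p6 they lie on the minus strand at chr7:142577112-142577133 (miR-675-5p) and chr7:142577078-142577099 (miR-675-3p), and on the plus strand at chr6:30741314-30741336 (miR-335-5p) and chr6:30741354-30741375 (miR-335-3p). The 4 seeds all differ, and the libraries of polyA RNA measured the hosts, not these small RNAs.
mmu-miR-675-5p: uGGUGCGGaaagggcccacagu
mmu-miR-675-3p: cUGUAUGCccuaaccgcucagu
mmu-miR-335-5p: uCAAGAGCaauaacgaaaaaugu
mmu-miR-335-3p: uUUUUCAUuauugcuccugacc

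The first comparison asked which imprinted RNAs were richer or poorer in TRAP than in pre-TRAP RNA. Most were poorer: 25 of 34 members were lower in TRAP RNA, 7 were higher and 2 (Ube3a and Slc22a18) were not called, by edgeR's quasi-likelihood test with Benjamini-Hochberg adjustment over all 24242 genes tested. Of all genes tested, 59.1% were called, 27.9% higher and 31.2% lower. The median log2 change, TRAP over pre-TRAP, was -1.36 over the members and -0.01 over all genes. Among coding members 19 were lower and 6 higher (median -1.32), and among non-coding members 6 were lower and 1 higher (median -1.37). Over the 1411 lncRNA genes tested, 363 were lower and 452 higher, with a median of 0.16.

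Library by library the separation was complete for 19 members. For 15 members every one of the 16 TRAP libraries lay below every one of the 8 pre-TRAP libraries, where 8.32% of all genes did so. For 4 members (Dio3, Snrpn, Nap1l5 and Peg13) every TRAP library lay above, where 6.33% of all genes did so. In 20 of the called members the fall was at least 1 on the log2 scale, as in 15.1% of all genes, and in 5 the rise was, as in 11.3%. In bulk RNA, fewer cells of a type and less RNA per cell cannot be told apart. The summed periotic mesenchyme markers were 292.5 to 1273.7 CPM in TRAP libraries and 1043.5 to 1540.2 CPM in pre-TRAP libraries, and the summed neuronal markers 3235.1 to 6357.5 CPM and 606.8 to 979.8 CPM in the same order. Neither list had a marker at 0 throughout, and the part of these cell types in the changes was not tested. Summed erythroid markers were 458.3 to 1600.0 CPM in TRAP libraries, against 6873.2 to 16143.0 CPM in pre-TRAP libraries. How much of a TRAP value came from RNA outside the tagged ribosomes was not tested.

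**Figure D1:**
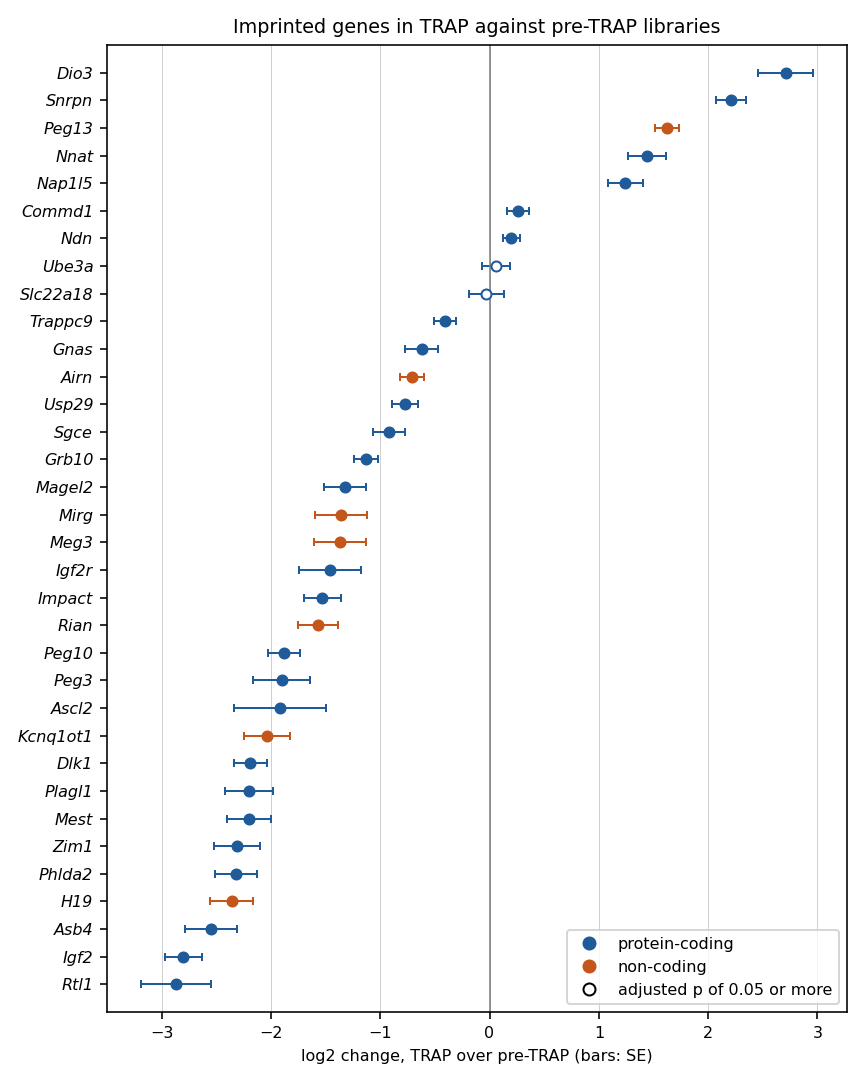
Log2 change, TRAP over pre-TRAP, for the 34 tested members, sorted by size, with standard errors as bars, coding members in blue, non-coding in orange and open circles for an adjusted p of 0.05 or more. The points run from -2.87 (Rtl1) to 2.71 (Dio3), with 25 called members left of 0 and 7 right of it.

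Among the growth regulators, the insulin-like growth factor cluster was strongly lower in TRAP RNA. Igf2, the fetal growth factor, had 1.62, 3.48 and 7.13 CPM (lowest, median and highest) in the 16 TRAP libraries, against 19.6, 24.5 and 34.2 CPM in the 8 pre-TRAP libraries. The groups did not overlap, and the fall was 6.95-fold (log2 change -2.80 ± 0.17 SE, adjusted p = 2.94e-13, edgeR). Igf2 shares positions with the annotated gene Igf2os, and the sources used here do not say how shared reads were counted. H19, the non-coding RNA made from the same cluster on the other parental allele, had 240.0, 525.7 and 815.4 CPM in TRAP libraries, against 1701.6, 2165.1 and 4945.5 CPM in pre-TRAP libraries. H19 too separated the groups completely and was the most reduced non-coding member (5.14-fold, log2 change -2.36 ± 0.20, adjusted p = 8.06e-11). It took 0.0219 to 0.0873% of the reads of a TRAP library and 0.141 to 0.485% of those of a pre-TRAP library.

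Igf2r, Airn, Grb10 and Phlda2 were each called lower. Igf2r, the receptor that carries IGF2 to the lysosome, ranged from 8.42 to 64.9 CPM in TRAP libraries, against 35.5 to 79.3 CPM in pre-TRAP libraries, and was lower by 1.46 ± 0.28 on the log2 scale. The overlap came from TRAP libraries 3, 5 and 6, at 38.5, 36.9 and 64.9 CPM. With library 4 they made a group of 22.9 to 64.9 CPM, against 8.42 to 18.5 CPM in the other 12, and without those 4 libraries the log2 change was -2.05 ± 0.14. Airn, the RNA transcribed across Igf2r from its intron, was lower by 0.71 ± 0.11. Grb10, an adaptor that dampens insulin and IGF receptor signalling, had 125.4 to 244.7 CPM in TRAP libraries, against 285.5 to 437.9 CPM in pre-TRAP libraries, a fall of 1.13 ± 0.11. Phlda2, a lipid-binding protein known for restraining placental growth, had 0.505, 1.17 and 2.06 CPM in TRAP libraries, against 4.54, 5.33 and 7.82 CPM in pre-TRAP libraries, and fell by 2.32 ± 0.19.

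In the Kcnq1ot1 cluster, which holds Phlda2, all members but Slc22a18 were called lower. Kcnq1ot1, a long RNA that silences its neighbours in cis, had 4.31, 6.39 and 18.2 CPM in TRAP libraries, against 23.9, 31.8 and 43.7 CPM in pre-TRAP libraries, with no overlap and a log2 change of -2.04 ± 0.21 (adjusted p = 6.11e-09). Ascl2, a basic helix-loop-helix factor of the trophoblast, was at or under 0.656 CPM in TRAP libraries, against 0.340 to 1.49 CPM in pre-TRAP libraries, and was lower by 1.92 ± 0.42. Slc22a18, a membrane transporter gene, averaged 1.48 ± 0.421 CPM in TRAP (SD, n = 16) and 1.50 ± 0.437 CPM in pre-TRAP libraries (n = 8) and was not called (log2 change -0.03 ± 0.16, adjusted p = 0.877).

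The Dlk1-Dio3 cluster held both the member with the largest rise and the one with the largest fall. Dio3, the deiodinase that inactivates thyroid hormone, had 2.02, 2.90 and 5.14 CPM in TRAP libraries, against 0.0561, 0.474 and 0.935 CPM in pre-TRAP libraries. It was 6.55-fold higher in TRAP RNA, with no overlap (log2 change 2.71 ± 0.25, adjusted p = 5.05e-10). Rtl1, a protein of retrotransposon origin, had at most 0.786 CPM in TRAP libraries, against 1.60 to 2.33 CPM in pre-TRAP libraries, a log2 change of -2.87 ± 0.32. Dlk1, a transmembrane protein with EGF repeats that resembles Notch ligands, had 1.68 to 6.42 CPM in TRAP libraries, against 11.7 to 32.0 CPM in pre-TRAP libraries, and fell by 2.19 ± 0.15.

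The 3 non-coding RNAs of that cluster are expressed from the maternal allele and fell together. Rian, the host of small nucleolar RNAs, had 5.94, 13.2 and 24.5 CPM in TRAP libraries, against 37.4, 41.2 and 44.6 CPM in pre-TRAP libraries, and fell by 1.57 ± 0.18 (adjusted p = 1.91e-08). Its coefficient of variation was 36.3% over the 16 TRAP libraries and 6.61% over the 8 pre-TRAP libraries. Meg3 ranged from 12.1 to 62.4 CPM in TRAP libraries, against 62.0 to 150.0 CPM in pre-TRAP libraries (log2 change -1.37 ± 0.24). The Meg3 ranges overlapped only by TRAP het library 1, at 62.4 CPM, and pre-TRAP mut library 20, at 62.0 CPM. Mirg, a host of miRNAs, had 0.310 to 2.02 CPM in TRAP libraries, against 2.11 to 3.86 CPM in pre-TRAP libraries (log2 change -1.36 ± 0.24).

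The zinc finger gene Peg3 and its neighbours were all lower. Peg3 had 58.7, 81.1 and 325.0 CPM in TRAP libraries, against 325.3, 425.9 and 567.4 CPM in pre-TRAP libraries, a log2 change of -1.90 ± 0.26. TRAP libraries 3 to 6 held 153.8 to 325.0 CPM of Peg3 and the other 12 held 58.7 to 112.2 CPM, and without those 4 libraries the log2 change was -2.44 ± 0.13. Zim1, a maternally expressed zinc finger gene, fell by 2.31 ± 0.21, and Usp29, a ubiquitin protease gene that starts beside Peg3, by 0.77 ± 0.12. Plagl1, a zinc finger factor that can arrest the cell cycle, had 28.5 to 135.7 CPM in TRAP libraries, against 221.8 to 541.9 CPM in pre-TRAP libraries, and fell by 2.20 ± 0.22.

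Of the coding members on chromosome 6, Asb4, Peg10, Sgce and Mest were called lower, Nap1l5 was called higher and Calcr was not tested. Asb4, a substrate adaptor of ubiquitin ligases, had 3.14, 4.76 and 16.5 CPM in TRAP libraries, against 25.7, 39.8 and 46.5 CPM in pre-TRAP libraries. The groups did not overlap and Asb4 fell 5.85-fold (log2 change -2.55 ± 0.24, adjusted p = 5.53e-10). Of its neighbours, Peg10, of retrotransposon origin, fell by 1.88 ± 0.15, and Sgce, the epsilon sarcoglycan, by 0.92 ± 0.15. Mest, a hydrolase-like protein used as a mesoderm marker, had 15.6 to 86.6 CPM in TRAP libraries, against 77.7 to 269.9 CPM in pre-TRAP libraries, and fell by 2.20 ± 0.20. Mest ranges overlapped in 1 TRAP library, number 3.

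Of the 7 members that rose, Dio3, Peg13, Ndn and Commd1 are described elsewhere, and the remaining 3 were Snrpn, Nnat and Nap1l5. Snrpn, which encodes the splicing protein SmN, had 140.1, 241.9 and 420.2 CPM in TRAP libraries, against 35.9, 49.1 and 80.9 CPM in pre-TRAP libraries. It was 4.62-fold higher with no overlap (log2 change 2.21 ± 0.14, adjusted p = 4.17e-13). Nnat, neuronatin, a small membrane protein of developing neurons, had 119.5, 573.8 and 917.9 CPM in TRAP libraries, against 137.1, 202.1 and 281.1 CPM in pre-TRAP libraries, a log2 change of 1.44 ± 0.17. The lowest Nnat value belonged to TRAP het library 5, and the other 15 TRAP libraries lay above every pre-TRAP library. Nap1l5, a relative of nucleosome assembly proteins, had 2.32 to 5.30 CPM in TRAP libraries, against 1.15 to 2.23 CPM in pre-TRAP libraries, and rose by 1.24 ± 0.16.

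Of the other members of the Snrpn domain, 1 was lower, 1 was called higher and 1 was not called. Magel2, of the MAGE family, had 0.818 to 2.68 CPM in TRAP libraries, against 3.50 to 4.65 CPM in pre-TRAP libraries, and fell by 1.32 ± 0.19. Ndn, its relative necdin, averaged 112.9 ± 11.9 CPM in TRAP and 98.4 ± 13.1 CPM in pre-TRAP libraries and was called higher by 0.20 ± 0.08 (adjusted p = 0.0433). Ube3a, a ubiquitin ligase that is imprinted in neurons, averaged 65.6 ± 14.5 CPM in TRAP and 63.2 ± 15.5 CPM in pre-TRAP libraries and was not called (log2 change 0.06 ± 0.13, adjusted p = 0.703). The Ndn call was lost when any of libraries 4, 6, 10, 11, 12, 15, 16, 20, 21 or 22 was left out, with changes of 0.16 to 0.21 and adjusted p values of 0.0513 to 0.130 in edgeR. It was also absent in experiment 2 alone (0.10 ± 0.10, adjusted p = 0.472) and in experiment 1 alone (0.33 ± 0.15, adjusted p = 0.0897).

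Peg13 was the single non-coding member that rose. It had 46.9, 68.2 and 82.0 CPM in TRAP libraries, against 17.1, 20.4 and 26.0 CPM in pre-TRAP libraries, and the 3.08-fold difference left no overlap (log2 change 1.62 ± 0.11, adjusted p = 2.50e-12). Trappc9, a vesicle trafficking gene whose intron holds Peg13, went the other way, with 16.2 ± 2.37 CPM in TRAP libraries (SD, n = 16), against 21.6 ± 2.49 CPM in pre-TRAP libraries (n = 8), and a log2 change of -0.41 ± 0.10.

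Impact, an inhibitor of the stress kinase GCN2, fell by 1.53 ± 0.17. Gnas, the gene of the stimulatory G protein alpha subunit, was at only 0.595 to 2.22 CPM in TRAP libraries and 1.09 to 3.07 CPM in pre-TRAP libraries, and was called lower by 0.62 ± 0.15. As Gnas has few counts and overlaps 2 annotated genes, these values concern reads assigned to it and not all its transcripts. In experiment 2 alone the Gnas change was -0.41 ± 0.19 (adjusted p = 0.0936), and in mut libraries alone -0.45 ± 0.22 (adjusted p = 0.0931). Commd1, a regulator of copper handling, was called higher by 0.26 ± 0.10 (adjusted p = 0.0283). That call was lost without library 17 (0.25, adjusted p = 0.0562) or library 20 (0.24, adjusted p = 0.0672), and in experiment 2 alone (0.27 ± 0.12, adjusted p = 0.0824) and experiment 1 alone (0.27 ± 0.17, adjusted p = 0.206).

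All 34 members kept the sign of their change in each experiment alone. In experiment 2 alone 24 were called lower and 5 higher, where 22.3% and 23.1% of all genes were. In experiment 1 alone the counts were 25 and 5, where 25.3% and 20.3% of all genes were called lower and higher. In mut libraries alone and in het libraries alone 33 of 34 signs were kept. Without TRAP libraries 3 to 6 the counts were 25 lower and 7 higher, where 32.6% and 28.6% of all genes were. The plot of values by library shows these levels for 8 members.

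**Figure D2:**
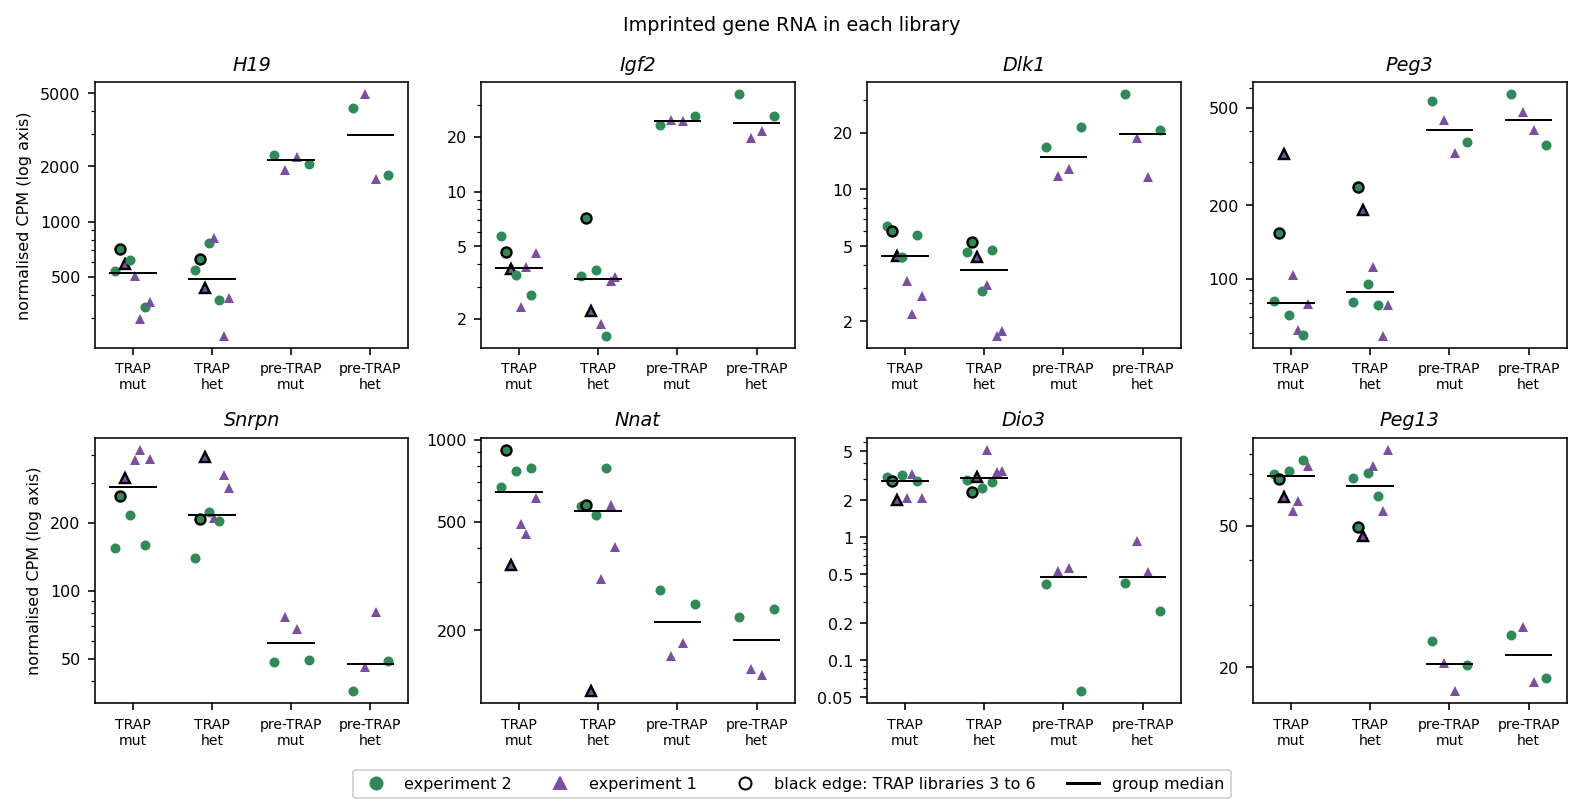
Normalised CPM on log axes for H19, Igf2, Dlk1, Peg3, Snrpn, Nnat, Dio3 and Peg13, with 1 point per library in the order TRAP mut, TRAP het, pre-TRAP mut and pre-TRAP het, circles for experiment 2, triangles for experiment 1, black edges for TRAP libraries 3 to 6 and lines at group medians. Igf2 stays at or below 7.13 CPM in TRAP and at or above 19.6 CPM in pre-TRAP libraries, while Peg13 stays at or above 46.9 CPM in TRAP and at or below 26.0 CPM in pre-TRAP libraries.

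Overlapping transcripts bear on several of these values. By RefSeq gene positions 23 of the 35 members overlap another annotated gene. Examples are Airn with Igf2r, Kcnq1ot1 with Kcnq1, Peg13 with Trappc9, and Rtl1 with Meg3 and Rian. Others are Igf2 with Igf2os, Snrpn with Snurf and Snhg14, Nnat with Blcap and Gnas with Gnasas1. The strand setting of the counting is not given in the sources used here, so reads of such partners cannot be told apart. Nor is it given whether reads shared by overlapping genes were counted, so the absolute levels of such members are uncertain.

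Spread between libraries differed by member. Igf2r varied 7.71-fold between the lowest and highest of the 16 TRAP libraries, but 2.20-fold in the 12 without libraries 3 to 6, and 2.24-fold between the 8 pre-TRAP libraries. Nnat varied 7.68-fold in TRAP RNA, where library 5 was lowest at 119.5 CPM, 2.57-fold without libraries 3 to 6, and 2.05-fold in pre-TRAP RNA. Peg13, Ndn and Trappc9 were among the steadiest, with coefficients of variation of 15.5%, 10.6% and 14.6% in TRAP libraries, and 15.5%, 13.3% and 11.5% in pre-TRAP libraries. Dio3 went the other way, at 25.4% in TRAP and 55.0% in pre-TRAP libraries, where pre-TRAP mut library 24 stood at 0.0561 CPM, or 2 reads. With so few pre-TRAP reads counting noise adds to the spread, so these Dio3 values do not compare directly with those of abundant members. In H19 the pre-TRAP het libraries split into 4164.7 and 4945.5 CPM (libraries 17 and 19) and 1701.6 and 1785.8 CPM (libraries 21 and 23), while the pre-TRAP mut libraries held 1910.5 to 2314.1 CPM.

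**Figure D3:**
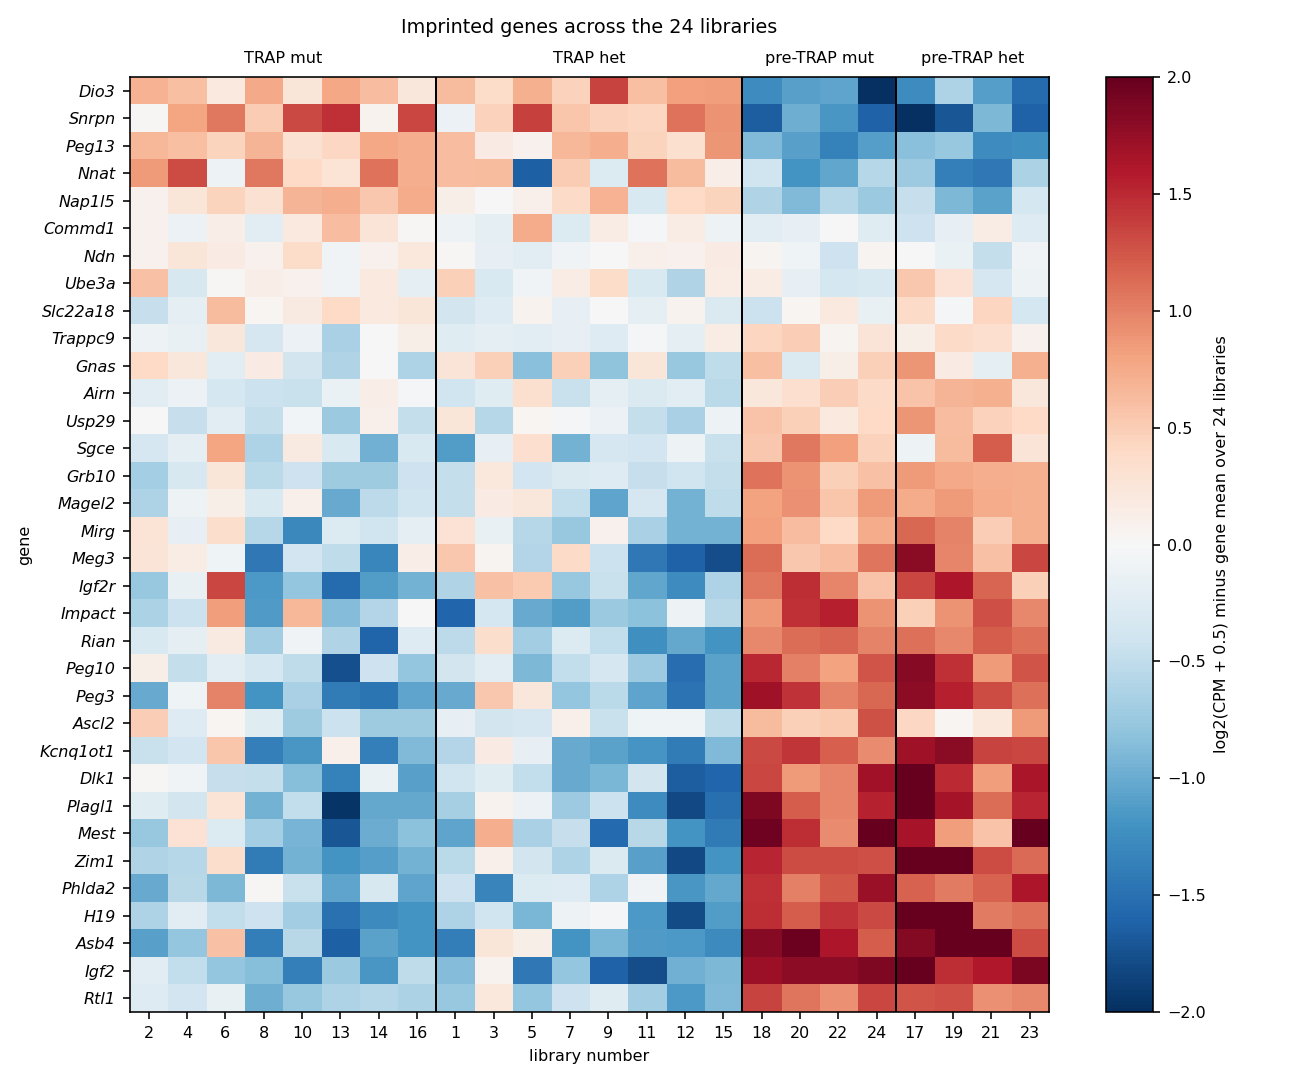
Log2 of CPM plus 0.5, centred on each gene's mean over the 24 libraries, for the 34 tested members (rows, sorted by the TRAP over pre-TRAP change) and the libraries by group (columns, library number below), with red above and blue below the mean and colours capped at 2 in either direction. The TRAP and pre-TRAP blocks differ in colour in most rows, and TRAP libraries 3 and 6 are less blue than other TRAP libraries in rows such as Peg3, Asb4 and Igf2r.

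The second question was whether loss of Fgf20 changed imprinted genes in TRAP RNA. No member was called between mut and het TRAP RNA. Of the 21577 genes tested 0.0742% were called (4 or 0.0185% higher and 12 or 0.0556% lower in mut), and 813 had an unadjusted p under 0.05, 1 of them a member. DESeq2's Wald test also called 0 members. The members' log2 changes, mut over het, ran from -0.26 to 0.53 with a median of 0.07, against -0.02 over all genes. Of the members 24 were positive and 10 negative, where 9986 and 11591 of all genes were.

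Impact had the smallest p. It had 13.7, 21.4 and 54.8 CPM in TRAP mut libraries (lowest, median and highest), against 9.91, 17.6 and 28.5 CPM in TRAP het libraries, which overlap (log2 change 0.53 ± 0.23, unadjusted p = 0.0302, adjusted p = 1.000, edgeR). Slc22a18 followed with 0.36 ± 0.18 and Nnat with 0.37 ± 0.21. Nnat had 345.7, 641.3 and 917.9 CPM in TRAP mut libraries, against 119.5, 549.2 and 786.3 CPM in TRAP het libraries. Among the non-coding RNAs the log2 changes were -0.10 ± 0.22 for H19, 0.16 ± 0.32 for Meg3, 0.17 ± 0.25 for Rian and 0.25 ± 0.34 for Mirg. Those of Kcnq1ot1 (0.18 ± 0.30), Airn (0.04 ± 0.14) and Peg13 (0.05 ± 0.13) were as small against their errors. In the experiments taken alone, 15 of the 32 members tested in both had changes of 1 sign. Without TRAP libraries 3 to 6 no member was called either.

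In pre-TRAP RNA no member was called between mut and het either. On data simulated with the same spread for all genes, this fit recovered 71.4% of 2-fold and only 4.29% of 1.5-fold changes. Small changes could be missed, and larger ones in members with more spread. Of 21954 genes tested 0.00455% were called, a single gene that was lower in mut, and 1048 had an unadjusted p under 0.05, again including 1 member. DESeq2's Wald test called 0 members here too. Members' log2 changes ran from -0.56 to 0.61, with a median of 0.0028 over the coding and -0.25 over the non-coding members, against -0.03 over all genes and -0.04 over lncRNA genes. All 7 non-coding estimates were negative, of which none passed adjustment. Of the 1052 lncRNA genes tested 581 were negative too, and the 7 estimates come from the same libraries and are not independent.

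Meg3 had the smallest p, with 93.5, 62.0, 65.4 and 90.1 CPM in pre-TRAP mut libraries 18, 20, 22 and 24, against 150.0, 84.1, 64.1 and 108.3 CPM in pre-TRAP het libraries 17, 19, 21 and 23 (log2 change -0.36 ± 0.16, unadjusted p = 0.0417, adjusted p = 0.837, edgeR). The groups overlapped and the highest value was that of het library 17. Kcnq1ot1 had 31.3, 33.9, 28.7 and 23.9 CPM in mut, against 40.6, 43.7, 32.0 and 31.5 CPM in het (log2 change -0.33 ± 0.17), and Dlk1 changed by -0.38 ± 0.20. For H19 the log2 change was -0.56 ± 0.30, which did not pass the test. Leaving out het library 19 brought the H19 estimate to -0.13. The others were Rian at -0.04 ± 0.14, Mirg at -0.25 ± 0.22, Airn at -0.20 ± 0.16 and Peg13 at -0.10 ± 0.17.

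The difference between these genotype effects was tested as an interaction over all 24 libraries. No gene was called (0%), with 302 of 24242 at an unadjusted p under 0.05, 2 of them members, and DESeq2's Wald test likewise called 0. The smallest p values among members were those of Slc22a18 (0.67 ± 0.31, unadjusted p = 0.0431) and Dlk1 (0.67 ± 0.32, unadjusted p = 0.0449), followed by Peg10 (0.42 ± 0.31), as the TRAP minus the pre-TRAP log2 change, each with an adjusted p of 1.000 in edgeR. The non-coding H19, Meg3, Rian, Mirg, Kcnq1ot1, Airn and Peg13 had estimates of 0.17 to 0.56, none with an unadjusted p under 0.05.

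**Figure D4:**
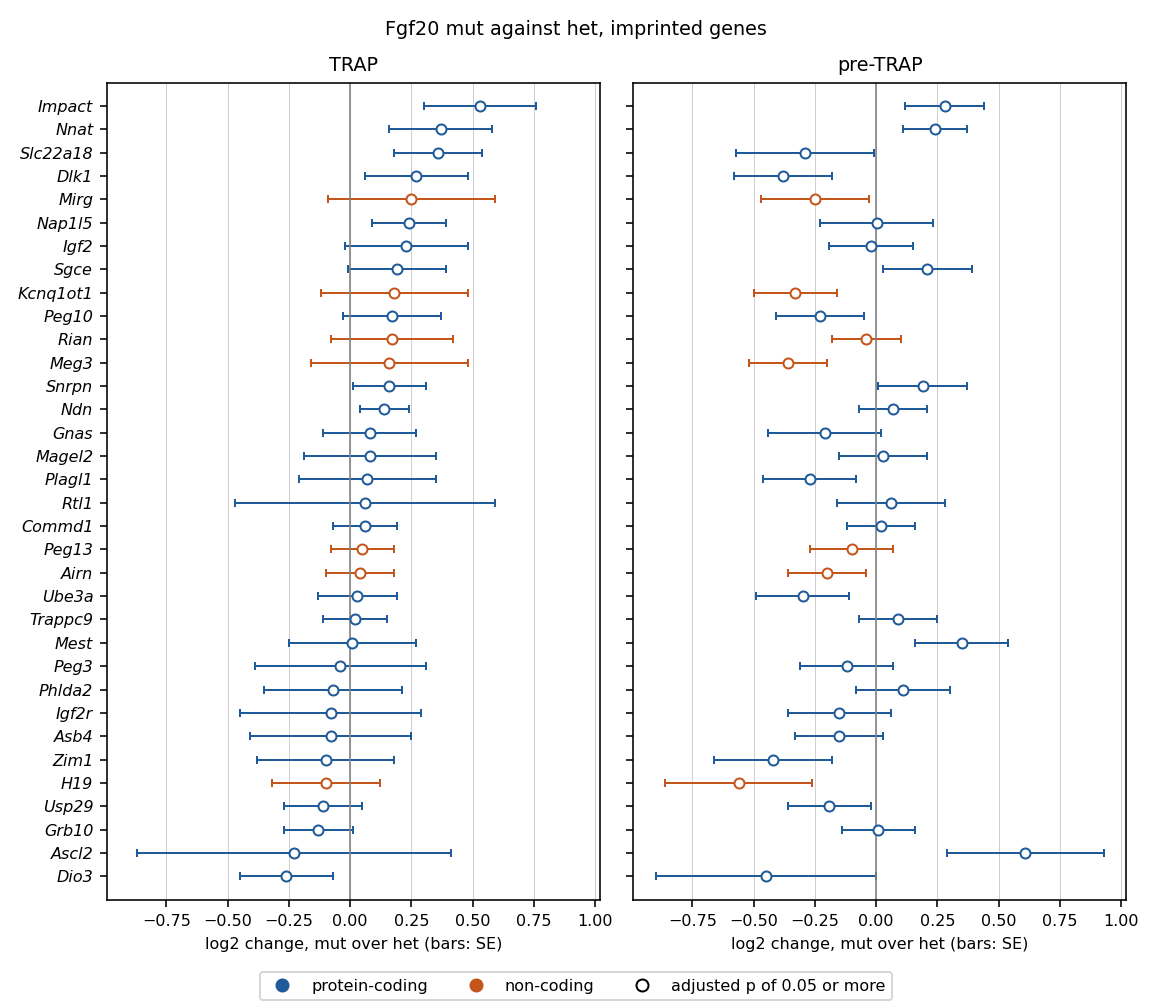
Log2 change, Fgf20 mut over het, in TRAP (left) and pre-TRAP (right) libraries for the 34 tested members, sorted by the TRAP change, with standard errors as bars, coding members in blue and non-coding in orange. All circles are open, since no member passed an adjusted p of 0.05, and the orange points lie left of 0 in pre-TRAP RNA, from -0.56 to -0.04.

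The experiment labels gave a batch comparison within each kind of RNA, in which the share of members called (17.6% in each) was near that of all genes. The members called are given as a description. In TRAP RNA 4 members were higher in experiment 2 than in experiment 1 (Gnas, Nnat, Dlk1 and Mest) and 2 were lower (Snrpn and Sgce), all 6 of them coding. Over all 21577 genes 23.0% were called, 14.1% higher and 8.81% lower. In pre-TRAP RNA 5 were higher (Mest, Gnas, Dlk1, Nnat and the non-coding Meg3) and 1 was lower (Sgce), where 14.7% of 21954 genes were called, 9.74% higher and 4.97% lower. Members called in the same direction in both kinds of RNA numbered 5 (14.7%), of 6 called in each, and 11.3% of the 20437 genes tested in both were so called. TRAP and pre-TRAP libraries may share pools of embryos, so the 2 comparisons may not be independent.

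By value, Gnas averaged 1.88 ± 0.272 CPM in experiment 2 and 0.806 ± 0.205 CPM in experiment 1 of the TRAP libraries (SD, n = 8 each). The lowest experiment 2 value, 1.43 CPM, lay above the highest experiment 1 value, 1.18 CPM (log2 change 1.27 ± 0.19, adjusted p = 5.17e-05, edgeR). In pre-TRAP libraries Gnas had 2.21 to 3.07 CPM in experiment 2, against 1.09 to 1.67 CPM in experiment 1, again with no overlap (0.90 ± 0.23, adjusted p = 0.0170). As Gnas has 2 overlapping annotated genes and few counts, this concerns reads assigned to it and not all its transcripts.

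Nnat averaged 701.2 ± 136.2 CPM in experiment 2 and 413.2 ± 158.3 CPM in experiment 1 in TRAP (0.81 ± 0.21), and 248.9 ± 24.0 CPM and 155.5 ± 19.2 CPM in pre-TRAP libraries in the same order (n = 4 each, 0.69 ± 0.13). The pre-TRAP ranges of 224.1 to 281.1 CPM in experiment 2 and 137.1 to 180.0 CPM in experiment 1 did not meet. Dlk1 changed by 0.80 ± 0.21 in TRAP and 0.71 ± 0.20 in pre-TRAP RNA. Mest changed by 0.75 ± 0.26 in TRAP (adjusted p = 0.0431) and by 1.12 ± 0.19 in pre-TRAP RNA (adjusted p = 0.00165), where experiment 2 held 164.3 to 269.9 CPM and experiment 1 held 77.7 to 145.7 CPM.

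Snrpn averaged 195.6 ± 41.1 CPM in experiment 2 and 338.4 ± 69.4 CPM in experiment 1 in TRAP libraries, lower by 0.74 ± 0.15 (adjusted p = 0.000802). In pre-TRAP RNA it was at -0.57 ± 0.18 and not called (adjusted p = 0.0556). Sgce was lower by 0.56 ± 0.20 in TRAP (adjusted p = 0.0442) and by 0.66 ± 0.18 in pre-TRAP RNA (adjusted p = 0.0284). Meg3 had 90.1 to 150.0 CPM in experiment 2 and 62.0 to 84.1 CPM in experiment 1 of the pre-TRAP libraries (0.67 ± 0.16, adjusted p = 0.0120) and was not called in TRAP RNA. The remaining non-coding members, H19, Rian, Mirg, Kcnq1ot1, Airn and Peg13, were called in neither.

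Calls near the threshold rested on single libraries. Without TRAP libraries 3 to 6 all 6 TRAP calls held, with Mest at 0.55 ± 0.17 and Sgce at -0.48 ± 0.17. In TRAP RNA the Mest call was lost without library 3, 4, 7, 9, 10, 12, 13, 15 or 16 (adjusted p 0.0530 to 0.108) and the Sgce call without library 1, 2, 5, 6, 7, 8, 10, 12 or 14 (adjusted p 0.0578 to 0.107). In pre-TRAP RNA the Dlk1 call was lost without library 17, 20, 21, 22 or 24 (0.0640 to 0.104), the Sgce call without 17, 18, 20, 21 or 24 (0.0587 to 0.0993) and the Gnas call without 20 or 21 (0.0763 and 0.0505).

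**Figure D5:**
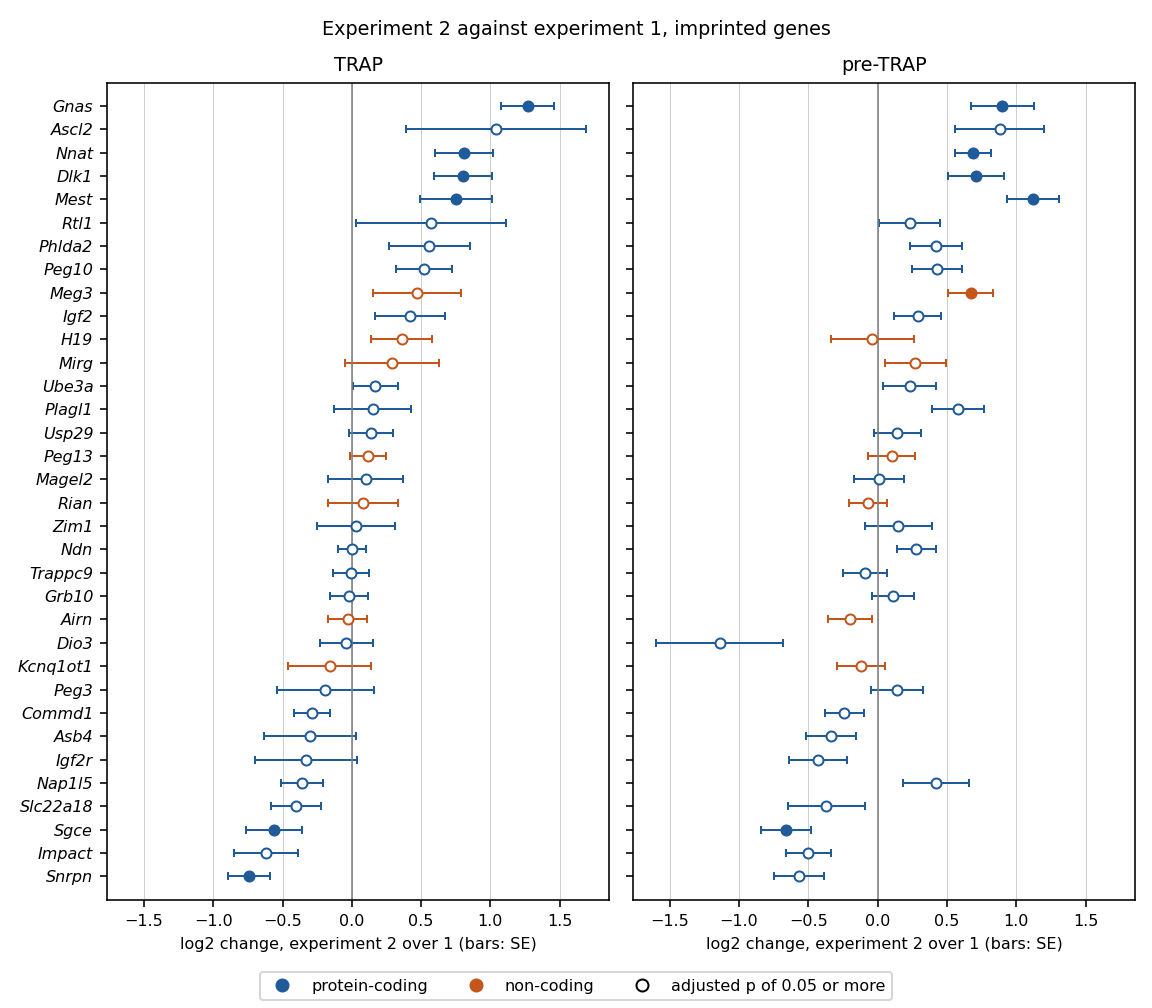
Log2 change, experiment 2 over experiment 1, in TRAP (left) and pre-TRAP (right) libraries for the 34 tested members, sorted by the TRAP change, with standard errors as bars, coding members in blue, non-coding in orange and filled circles for an adjusted p under 0.05. Gnas, Nnat, Dlk1 and Mest are filled on the right of 0 in both panels and Sgce on the left in both.

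Whether the TRAP over pre-TRAP difference itself depended on the experiment was tested as a second interaction. Of 24242 genes 0.0371% were called (0.0289% higher and 0.00825% lower) and no member was, also by DESeq2. The smallest p values among members were those of Nap1l5 (-0.83 ± 0.26, unadjusted p = 0.00367, adjusted p = 0.590), Dio3 (1.07 ± 0.43, unadjusted p = 0.0181, adjusted p = 0.909) and Ndn (-0.32 ± 0.15, adjusted p = 1.000) in edgeR. The non-coding H19, Meg3, Rian, Mirg, Kcnq1ot1, Airn and Peg13 lay between -0.29 and 0.38.

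Genes around these pathways were read from 3 further lists. Of 33 tested other genes reported as imprinted, 16 (48.5%) were lower and 10 (30.3%) higher in TRAP than in pre-TRAP RNA. Of all genes tested 31.2% were called lower and 27.9% higher. The median log2 change was -0.40 over this list, against -0.01 over all genes. The largest changes were those of Tspan32, a tetraspanin gene (-2.76 ± 0.27), Klf14, a zinc finger factor gene (-2.61 ± 0.27), and Slc22a3, an organic cation transporter gene that lies near Igf2r (2.55 ± 0.18). Of 16 genes of the IGF axis 10 (62.5%) were lower and 2 (12.5%) higher (median -0.70). Igf1 averaged 17.5 ± 5.98 CPM in TRAP and 59.3 ± 4.68 CPM in pre-TRAP libraries, lower by 1.78 ± 0.15. Irs1, which relays the IGF receptor's signal, fell by 2.25 ± 0.32 and Pappa, a protease that frees IGF from a binding protein, by 1.82 ± 0.30.

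A list drawn up around imprint maintenance, which also took in Rlim, had 17 tested genes. Of these 10 (58.8%) were lower, Rlim among them, and 2 (11.8%) higher (median -0.46), where 31.2% and 27.9% of all genes were. Dnmt3b, a DNA methyltransferase, fell by 0.96 ± 0.12, Uhrf1, which guides DNMT1 to replicated DNA, by 0.88 ± 0.09, and Tet2, which oxidises methylated cytosine, by 0.86 ± 0.10. Between experiments 2 and 1, other imprinted genes gave 2 higher (6.45%) and 4 lower (12.9%) calls of 31 tested in TRAP RNA. Over all genes 14.1% were higher and 8.81% lower there. In pre-TRAP RNA 2 were higher (6.06%) and 3 lower (9.09%) of 33, against 9.74% and 4.97% of all genes. None of these 3 lists had a gene called between genotypes in TRAP or in pre-TRAP RNA by edgeR's quasi-likelihood test. At an unadjusted p under 0.05 the other imprinted genes had 3 in TRAP and 2 in pre-TRAP RNA, the IGF axis 1 in each and the imprint maintenance genes 0 in both.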

How the data were processed

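RNA was sequenced from 24 libraries of polyA RNA, and the authors deposited 1 table of read counts per gene (53946 genes, of which 53274 had a symbol), not normalised. Per the submitters' processing notes STAR and DESeq2 were used with GRCm38.p5; for the counting tool, annotation and strand setting, nothing is given in the sources used here. Per the labels' protocols, a Picopure kit served for purification and a SMARTer kit for amplification, without molecular identifiers, so counts include amplified copies.

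Counts were fitted with edgeR 4.0.16 (R 4.3.3), with TMM factors (0.801 to 1.142), genes kept by filterByExpr at a minimum count of 10, quasi-likelihood tests and Benjamini-Hochberg adjustment over all genes tested, with a threshold of 0.05. Genotype, experiment and, where both kinds of RNA entered, method were terms. CPM values use the TMM-scaled library sizes. DESeq2 1.42.0 was an alternative, as were other scaling, no filter, each library left out, each experiment or genotype alone and a mesenchyme covariate; leaving out libraries 3 to 6 was added after seeing the data. The fits were tested on data simulated with the same spread for all genes. Changes were put only into well-counted genes, and apart from random spread the libraries otherwise differed only in depth. Real members differed in spread, with TRAP coefficients of variation of 10.6% for Ndn and 72.4% for Igf2r. The shares recovered therefore need not hold for single members. Of 2-fold changes, 95.7% were recovered for TRAP genotype, 71.4% for pre-TRAP genotype and 31.4% for the genotype interaction. For 1.5-fold changes the shares were 45.7%, 4.29% and 1.43%. Replicate libraries differed by more than sampling noise in all 68 pairs of a group. Labels say each library is a pool of embryos, so p-values measure the spread between pools.

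Depth was 30745166 to 53374796 counts per library. Genes named were all called members, all non-coding members and, in genotype and interaction comparisons, the members with the 3 smallest p values, with fullest values for up to 3 rises and 3 falls per class averaging at least 2 CPM, and from the other lists up to 3 called genes by size of change. The members and lists were chosen with earlier results of these data known. Promoter and miRNA sequences are RefSeq's, on GRCm38.p6.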

Additional observations from a re-analysis of the deposited data

Results flagged for a closer look

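A gap test between the highest or lowest library and its nearest neighbour, relative to the range of the group, singled out 14 of 136 sets of member values. Its nominal rate of about 1 in 20 holds for independent sets of normally distributed values. The sets here share libraries and CPM values can be skewed, so the 14 are a description and not an excess over that rate. All 14 were high values. TRAP mut library 6 stood above its group for Peg3 (325.0 CPM, against 59.1 to 153.8 in the other 7), Zim1 (15.2, against 4.14 to 7.74), Asb4 (16.5, against 3.14 to 7.23), Grb10 (244.7, against 125.4 to 164.1) and Igf2r (64.9, against 8.42 to 22.9). TRAP het library 3 did so for Igf2 (7.13 CPM, against 1.62 to 3.73), Rian (24.5, against 7.82 to 15.6), Grb10 (239.3, against 147.2 to 171.5) and Mest (86.6, against 17.4 to 37.9). TRAP het library 5 was high for Airn (9.49 CPM, against 4.96 to 6.42) and Commd1 (82.5, against 40.6 to 54.8), and TRAP het library 9 for Dio3 (5.14, against 2.33 to 3.45). Libraries 3, 5 and 6 are among the 4 with the most cartilage marker RNA, and the part of that RNA in these values was not tested. In pre-TRAP mut RNA, library 18 was high for Zim1 (34.9 CPM, against 29.6 to 30.0) and library 24 for Ascl2 (1.49, against 0.640 to 0.777).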

How the results depend on the processing

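Of 1056 alternative values for the 32 members called between TRAP and pre-TRAP RNA, 1029 stayed on their side of the threshold and 27, all of Ndn, Commd1 or Gnas, fell short; none changed sign. Members called ranged from 5 to 7 higher with 25 lower when 1 library was left out. Of the uncalled members, Ube3a reversed in het libraries alone (-0.12) and Slc22a18 in mut libraries alone (0.32) and within its leave-one-out range of -0.09 to 0.09.

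In the experiment comparison of TRAP RNA, members called lower were 4 with DESeq2, 0 in het alone and 1 in mut alone, and members higher were 1 in het alone. In pre-TRAP RNA, members lower were 2 without a filter, 3 with DESeq2, 0 in het alone and 2 in mut alone, and members higher 0 in het alone. Leaving out 1 library gave 3 to 5 higher and 1 to 3 lower in TRAP RNA, and 3 to 7 higher and 0 to 3 lower in pre-TRAP RNA. TRAP members lower fell to 1 without library 1, 2, 6, 7, 8, 10, 12 or 14. Pre-TRAP members higher fell to 3 without library 20 or 21, and members lower to 0 without 17, 18, 20, 21 or 24 and came to 3 without 19 or 23.

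Of the genotype estimates, none called, these reversed in TRAP RNA: in experiment 2 alone Meg3 (-0.45), Rian (-0.31) and Kcnq1ot1 (-0.28), in experiment 1 alone Airn (-0.10) and Peg13 (-0.06), and without libraries 3 to 6 Peg13 (-0.04). In pre-TRAP RNA Rian reversed in experiment 1 alone (0.07) and Peg13 in experiment 2 alone (0.04). Leave-one-out ranges that crossed 0 were, in TRAP RNA, H19 -0.20 to 0.10, Kcnq1ot1 -0.02 to 0.39, Airn -0.03 to 0.14 and Peg13 -0.0018 to 0.13, and in pre-TRAP RNA Rian -0.08 to 0.03 and Peg13 -0.20 to 0.06.

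Over all genes, TRAP genotype calls were 16 in the main setting, 27 without a filter, 53 with DESeq2, 4 with no experiment term, 2 in each experiment alone and 6 to 16 with 1 library left out. Pre-TRAP genotype calls were 1, but 2 with DESeq2 and 0 with no experiment term or in experiment 2 alone. Calls between TRAP and pre-TRAP were 14320, and 9249 in het alone. The genotype interaction had 1 call without a filter. Experiment calls were 4952 in TRAP RNA (1174 in het alone, 3103 in mut alone) and 3231 in pre-TRAP RNA (596 in het alone, 1995 to 4925 with 1 library left out). The method by experiment interaction had 9, and 33 without a filter, 45 with DESeq2 and 4 to 15 with 1 library left out. The cause was not tested. No paired analysis was possible because the libraries' numbers are not shared between groups.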
